A study of Homo sapiens with 16 samples.

Results

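The genes described here are the SR proteins, the hnRNPs, the kinases that phosphorylate SR proteins, and 3 scaffold proteins of nuclear speckles, followed through the inhibition of CDK7. They were chosen by name: 14 SR proteins (SRSF1 to SRSF12 with TRA2A and TRA2B), 21 hnRNPs (with PTBP1 and PTBP3), 7 kinases (CLK1 to CLK4, SRPK1, SRPK2 and PRPF4B) and the scaffolds SON, SRRM1 and SRRM2. Of these 45 genes, 41 had a row among the 18093 rows of counts and 26 had at least 1 splicing variation in the authors' deposited splicing table, which holds 6716 variations in 3700 genes. Both kinds of data were at hand for 25 of the 45, and 3 had neither (CLK2, HNRNPL and HNRNPR). Together with HNRNPH1, which had splicing data but no row of counts, their expression was not analysed here.

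HL60 is an established human myeloid leukaemia line, described as promyelocytic, and the cells were wild type. For 5 h they received either the solvent DMSO alone or SY-351 at 50 nM, a compound that inhibits CDK7, a kinase of the general transcription factor TFIIH, and poly(A)-enriched RNA was sequenced. Each group held 4 replicates with 2 technical repeats each, which give 8 count columns. The labels do not say that replicates were separate cultures, so p-values measure the spread between these samples, which may be technical. The study asked what CDK7 does for transcription, with an interest in splicing and termination defects.

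SR proteins bind exonic enhancers through an RNA recognition motif and recruit the spliceosome through a domain rich in arginine and serine, whose phosphorylation by SRPK and CLK kinases sets their import and release from nuclear speckles. hnRNPs coat nascent transcripts and often repress the exons they bind, so that many exons are set by the balance of both families. Most of these genes also control their own level: they carry an exon or intron whose splicing brings a stop codon that sends the mRNA to nonsense-mediated decay, a poison exon, and in the CLK genes skipping of an internal exon has the same effect.

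The exons on which the splicing results turn are shown first, as GENCODE release 29 gives them on GRCh38, 5′ to 3′ on the strand of the gene. CLK1 exon 4 (chr2:200860125-200860215, minus strand) and CLK4 exon 4 (chr5:178617344-178617434, minus strand) are 91 bases each, and skipping them shifts the reading frame. Capitals mark the 6 bases at which the pair differ, with 85 of 91 bases (93.4%) identical.
CLK1 exon 4: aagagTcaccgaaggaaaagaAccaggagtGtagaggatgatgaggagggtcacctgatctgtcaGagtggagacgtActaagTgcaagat
CLK4 exon 4: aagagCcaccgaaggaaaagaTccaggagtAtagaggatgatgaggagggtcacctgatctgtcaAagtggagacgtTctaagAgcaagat

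When exon 4 is skipped, reading goes on into the next exon and meets a stop codon, in capitals, after few bases in both genes. The stretches lie at chr2:200859726-200859746 and chr5:178616901-178616948, both on the minus strand.
CLK1, exon after the skip: atgaaattgttgatacttTAG
CLK4, exon after the skip: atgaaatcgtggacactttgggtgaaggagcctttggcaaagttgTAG

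Poison exons of SRSF3 (chr6:36599821-36599854, plus strand), SRSF4 (chr1:29166009-29166064, minus strand) and SRSF7 (chr2:38749319-38749346, minus strand) are shown from their first base to the stop codon that they bring into frame, in capitals.
SRSF3: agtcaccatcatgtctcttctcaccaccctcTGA
SRSF4: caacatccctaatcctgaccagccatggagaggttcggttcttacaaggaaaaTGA
SRSF7: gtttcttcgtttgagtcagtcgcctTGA

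SON has an 80-base exon (chr21:33572551-33572630, plus strand) that is listed only in transcripts that are not productive, and the stop codon it brings into frame stands in the next exon (chr21:33573308-33573320), in capitals. CLK4 has a further exon listed only in a nonsense-mediated decay transcript, of 41 bases (chr5:178605825-178605865, minus strand). Neither length is a multiple of 3. In its transcript the CLK4 exon lies downstream of the stop codon that follows the skip of exon 4. The listing therefore does not say that this exon brings a stop codon itself.
SON, 80-base exon: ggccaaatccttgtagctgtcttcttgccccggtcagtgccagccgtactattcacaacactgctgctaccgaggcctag
SON, next exon: gatcagttctTAA
CLK4, 41-base exon: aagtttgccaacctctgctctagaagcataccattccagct

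The last pair are exons of coding transcripts whose use moved: the 187-base exon of SRSF1 (chr17:58005414-58005600, minus strand), whose loss shifts the frame, and the 42-base exon of SRRM1 (chr1:24663183-24663224, plus strand), which keeps it.
SRSF1, 187-base exon: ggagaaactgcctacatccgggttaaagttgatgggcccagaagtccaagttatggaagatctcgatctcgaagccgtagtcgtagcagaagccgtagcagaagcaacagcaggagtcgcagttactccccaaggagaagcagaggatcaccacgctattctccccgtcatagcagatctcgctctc
SRRM1, 42-base exon: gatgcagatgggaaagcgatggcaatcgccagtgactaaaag

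Levels are given first in plain CPM, the usual scaling of a gene's count to its library's total. Totals ran from 103676557 to 124242039 counts in DMSO and from 43266228 to 77891776 counts in SY-351, so that 3 counts equal 0.0241 to 0.0693 CPM. DMSO replicates 1 and 2 stood apart: their log-scale correlation with DMSO 3 and 4 was 0.756 to 0.785 across genes, against 0.991 between themselves and 0.992 between DMSO 3 and 4. The 4 SY-351 libraries correlated with each other at 0.992 to 0.998. Counts of calls and the folds of the members named are therefore given for all 8 libraries and without DMSO 1 and 2. Of the promyelocyte markers 7 of 10 had a row (ELANE, PRTN3 and AZU1 had none), with MPO, the myeloperoxidase of the granules, between 19049 and 33560 CPM in every library. By library MPO was at 27335, 31595, 19455 and 19049 CPM in DMSO and at 30035 to 33560 CPM in SY-351, above DMSO 3 and 4. Other promyelocyte markers moved too. SPI1 was at 1733, 1766, 436 and 416 CPM in DMSO and at 291 to 319 CPM in SY-351. CEBPA, a myeloid transcription factor, was at 2537, 2844, 635 and 648 CPM in DMSO and at 88.1 to 96.7 CPM in SY-351, and CEBPE at 253 to 878 CPM and at 68.1 to 79.3 CPM. LYZ was at 149 to 2192 CPM in DMSO and at 4393 to 4710 CPM in SY-351, CTSG at 12.7 to 339 CPM and at 606 to 681 CPM, and CD33 ran from 2.04 to 104 CPM within DMSO. Their part in the members' results was not tested. Of 13 other cell markers with a row, 10 stayed under 1 CPM in every DMSO library and 8 in every SY-351 library, and the 13 summed to 7.71 to 32.2 CPM in DMSO and to 43.2 to 46.6 CPM in SY-351. In bulk RNA, fewer cells of a kind and less RNA per cell cannot be told apart.

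The split of the DMSO group ran straight through these genes. In DMSO 1 and 2, 12 of the 40 tested members lay under 10 CPM while DMSO 3 and 4 both held at least 20 CPM. Over all 15473 genes tested that was so for 2058, or 13.3%. Many of these genes are expressed too low to qualify. A mean of at least 10 CPM over the 8 libraries was reached by 8316 genes and by 39 of the members. The members' count and the 13.3% are therefore not at like levels. HNRNPC, which packages nascent RNA, is 1 of the 12 members. It was at 2.55 and 1.07 CPM in the first pair of DMSO libraries and 472 and 508 CPM in the second. The other 11 were SRSF3, SRSF5, SRSF7, TRA2A, HNRNPA1, HNRNPH3, CLK1, CLK4, PRPF4B, SRPK1 and SRRM1. PTBP1, the polypyrimidine tract-binding repressor, went the other way, at 2402 and 2340 CPM against 756 and 772 CPM. The 12 members had transcripts of lower GC content (median 41%, against 44.2% in the 26 of the other 28 with a transcript in GENCODE). The ranges overlapped, at 38.1% to 48.6% and at 36.7% to 57.8%. Whether base composition has a part in the split was not tested.

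**Figure D1:**
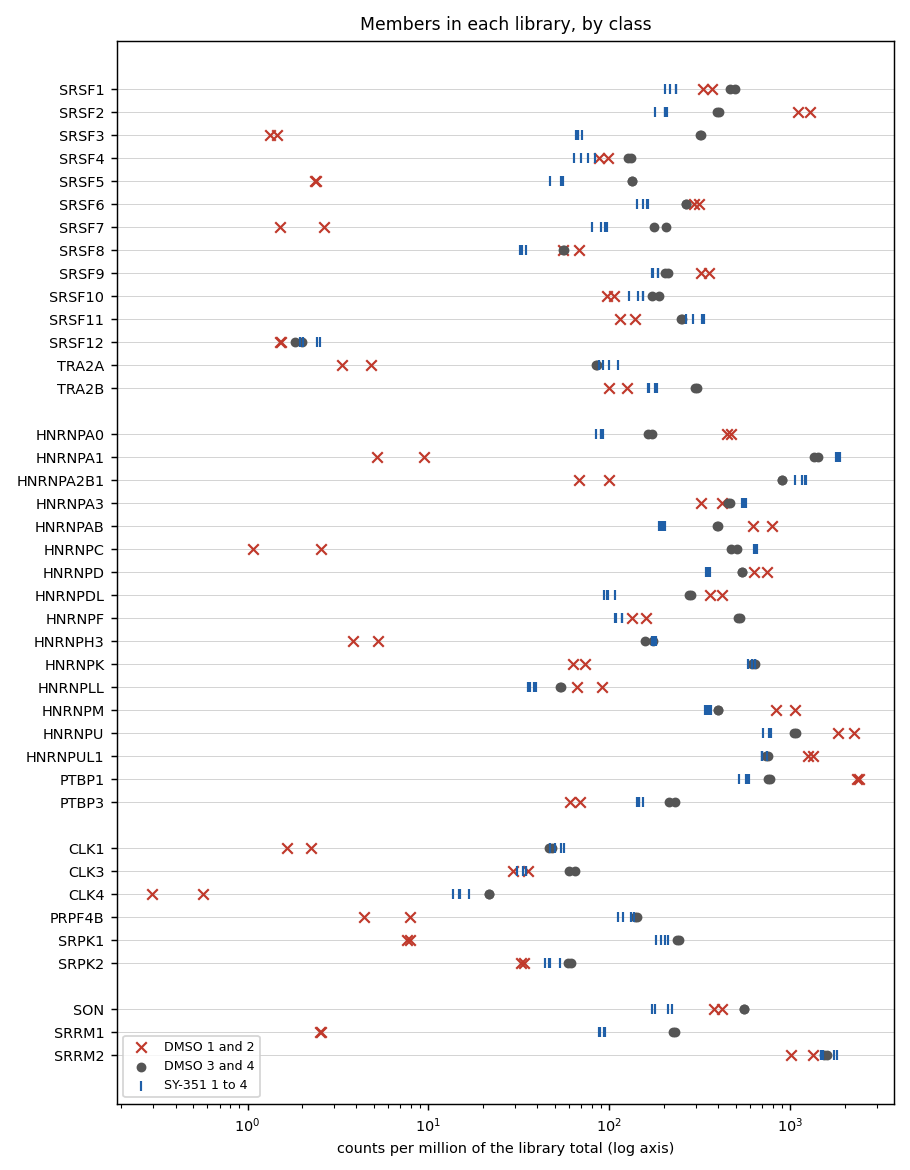
Level of the 40 tested members in each library, by class, in plain CPM on a log axis. Crosses are DMSO 1 and 2, dots DMSO 3 and 4, ticks the 4 SY-351 libraries. The crosses of 12 members, among them SRSF3, HNRNPA1, HNRNPC and SRRM1, lie under 10 CPM, far from the dots.

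With all 8 libraries, 3 of the 40 tested members fell and 0 rose (adjusted p below 0.05 over all genes, edgeR's quasi-likelihood test with TMM scaling). Over all genes 13.6% fell and 2.91% rose. At an unadjusted p below 0.05, 15 members were lower and 2 were higher, against 22.6% and 9.27% of all genes, and DESeq2 called 14 lower and 1 higher against 21.4% and 6.51% of all genes. The 3 were HNRNPDL, HNRNPF and SON. Total count scaling called 10 lower and 0 higher, against 16.1% and 1.39% of all genes, and with DMSO 1 and 2 as sole controls 21 were lower and 16 higher, against 38.4% and 40.8%. The median log2 fold of the members was -0.14, against 0 for all genes. No call survived leaving out any 1 SY-351 library, where 3.00% to 3.83% of all genes were lower, although the folds stayed at -2.10 to -2.02 for HNRNPDL, -1.49 to -1.45 for HNRNPF and -1.46 to -1.37 for SON. Without DMSO 1 the count was 1 (8.14% of all genes), without DMSO 3 it was 16 (22.4%), and without DMSO 4 it was 6 (16.1%).

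Without DMSO 1 and 2, 14 of 40 members fell (26.4% of all genes) and 10 rose (21.9%), with DMSO 3 and 4 as the only controls. Among the SR proteins 7 of 14 fell and 2 rose, among the hnRNPs 4 of 17 fell and 6 rose, among the kinases 1 of 6 fell and 1 rose, and of the scaffolds 2 fell and 1 rose. The median log2 fold was -0.37 in the SR proteins and -0.02 in the hnRNPs, against 0.01 in all genes. Calls changed with the remaining controls: without DMSO 3 as well, 22 members were lower and 9 higher (33.8% and 25.4% of all genes), and without DMSO 4 as well, 12 were lower and 19 higher (24.8% and 29.5%). In these fits 1 DMSO library stands alone, the spread comes from SY-351 only, and the lone library is assumed to vary like them.

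These folds are relative to the middle of all genes, and the scale matters. On the plain total the median gene was 0.45 lower (log2) in SY-351 than in DMSO 3 and 4, and there 27 members were called lower and 5 higher, against 43.3% and 13.1% of all genes. All 14 members called lower in the TMM fit were also lower on that scale, and 5 of the 10 called higher were higher (HNRNPA1, HNRNPA2B1, HNRNPA3, HNRNPC and SRSF11), while HNRNPK changed sign (0.40 and -0.02). TMM also gave DMSO 3 and DMSO 4 unlike factors, 1.42 and 1.06. Genes of at least 10 CPM had a median ratio of 1 between these 2 libraries, and genes of 0.3 to 3 CPM one of 1.92. Scaled on genes of at least 10 CPM alone, an alternative chosen after the data were seen, the factors were 1.26 and 1.24. The calls among the 39 members left were then 18 lower and 16 higher, against 44.1% and 41.4% of all genes, and the 24 calls above were all among them with the same sign.

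**Figure D2:**
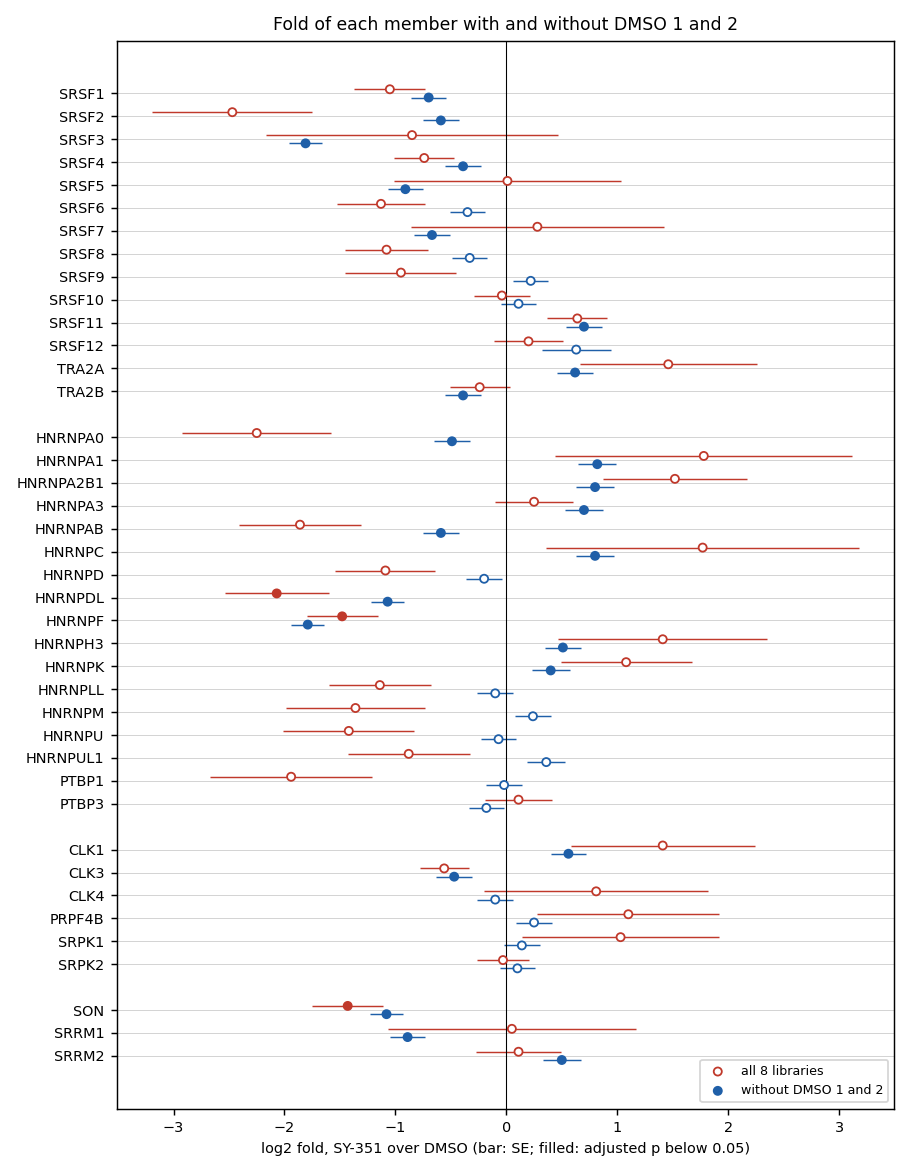
Log2 fold of SY-351 over DMSO for the 40 tested members, by class, with all 8 libraries (red) and without DMSO 1 and 2 (blue). Bars are the SE of the fold and filled points passed an adjusted p of 0.05. Red bars are long where DMSO 1 and 2 differ from DMSO 3 and 4, and SRSF3 and HNRNPF have the lowest blue points, -1.81 and -1.79.

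Among the SR proteins, SRSF3, the smallest of the family and a factor in mRNA export, had the largest fall without DMSO 1 and 2 (chr6:36594362-36605600, GRCh38.p14). It stood at 1.33, 1.46, 316 and 322 CPM in DMSO 1 to 4 and at 67.4, 71, 65.5 and 67 CPM in SY-351 1 to 4. The SY-351 libraries lay below DMSO 3 and 4 and above DMSO 1 and 2. Without the latter pair its log2 fold was -1.81 (SE 0.15, adjusted p = 1.31e-30), and with all 8 libraries -0.85 (SE 1.32, adjusted p = 0.683).

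SRSF5, another SR protein, had the same pattern. It stood at 2.38, 2.37, 133 and 134 CPM in DMSO and at 54.1, 55, 55.3 and 47 CPM in SY-351. The fold without DMSO 1 and 2 was -0.91 (SE 0.16, adjusted p = 2.48e-08), and with 8 libraries 0.01 (adjusted p = 0.995). SRSF7, a zinc-knuckle SR protein, was at 2.66, 1.52, 176 and 206 CPM in DMSO and at 90.3, 97.2, 94.5 and 80.2 CPM in SY-351. Its fold was -0.67 (SE 0.16, adjusted p = 6.87e-05) without DMSO 1 and 2 and 0.28 (adjusted p = 0.884) with 8 libraries. In both genes the SY-351 values lay between the DMSO pairs.

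SRSF1, the founding member of the family (chr17:57989038-58007246), did not depend on the DMSO pair for its direction. It stood at 371, 330, 467 and 496 CPM in DMSO and at 217, 234, 235 and 202 CPM in SY-351, with no overlap. Its fold was -1.05 (SE 0.32, adjusted p = 0.0543) with 8 libraries and -0.70 (SE 0.16, adjusted p = 2.61e-05) without DMSO 1 and 2. SRSF2, which recognises both C- and G-rich enhancers, stood at 1101, 1291, 403 and 396 CPM in DMSO and at 204, 208, 203 and 178 CPM in SY-351, again without overlap. Its fold was -2.47 (SE 0.72), just short of the threshold at an adjusted p of 0.05 as rounded, and -0.59 (SE 0.16, adjusted p = 0.000492) without DMSO 1 and 2.

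SRSF4, an SR protein with a long arginine- and serine-rich tail, stood at 98.7, 87.2, 132 and 127 CPM in DMSO and at 69.8, 76.3, 83.4 and 63.5 CPM in SY-351. The groups did not overlap, and the fold without DMSO 1 and 2 was -0.39 (SE 0.16, adjusted p = 0.0289), against -0.74 (adjusted p = 0.103) with 8 libraries. TRA2B, which activates exons with GAA repeats, was at 100, 126, 298 and 306 CPM in DMSO and at 165, 184, 179 and 164 CPM in SY-351, between the DMSO pairs. Its fold without DMSO 1 and 2 was -0.39 (SE 0.16, adjusted p = 0.0305), and with 8 libraries -0.24 (adjusted p = 0.566).

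SRSF11 and TRA2A were the SR proteins that rose without DMSO 1 and 2. SRSF11, an SR protein of larger size, stood at 114, 139, 248 and 252 CPM in DMSO and at 290, 333, 325 and 264 CPM in SY-351, every one above every DMSO library. Its fold was 0.70 (SE 0.16, adjusted p = 7.40e-05), and 0.64 (adjusted p = 0.143) with 8 libraries. TRA2A, the paralog of TRA2B, was at 4.82, 3.33, 84.8 and 85.7 CPM in DMSO and at 92.6, 100, 112 and 87.3 CPM in SY-351, with a fold of 0.62 (SE 0.16, adjusted p = 0.000496), and 1.46 (adjusted p = 0.247) with 8 libraries. On the plain total TRA2A was not called (0.20), and its paralog was lower there (-0.80). The difference between the 2 paralogs was not tested.

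SRSF10, a splicing activator that turns repressor when dephosphorylated, was at 97.3, 106, 172 and 187 CPM in DMSO and at 144, 154, 154 and 129 CPM in SY-351. The fold passed in neither fit (0.11, SE 0.16, adjusted p = 0.639 without DMSO 1 and 2, and -0.04 with 8 libraries). SRSF12 was at 1.54, 1.51, 1.84 and 2.01 CPM in DMSO and at 2.52, 2.43, 2.02 and 1.94 CPM in SY-351, with overlap and no call (0.63, SE 0.31, adjusted p = 0.078, and 0.20 with 8 libraries). The other 3, SRSF6, SRSF8 and SRSF9, did not pass without DMSO 1 and 2 (log2 folds -0.35, -0.33 and 0.22) or with 8 libraries (-1.13, -1.08 and -0.95). Their plain CPM in SY-351 was below every DMSO library in all 3 genes. SRSF9 shares 25.7% of its length with GATC on the other strand, and although reads were counted with strand, whether the kit marks it is not given in the sources used here, so its reads are uncertain. SRSF8, a near copy of SRSF2, may share reads with it.

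Among the hnRNPs, HNRNPF and HNRNPDL fell in both fits. HNRNPF (chr10:43385618-43409186), which binds G-runs, stood at 160, 134, 517 and 530 CPM in DMSO and at 109, 117, 117 and 108 CPM in SY-351. Every SY-351 library was below every DMSO library, narrowly so against DMSO 1 and 2. The fold was -1.48 (SE 0.32, adjusted p = 0.019) with 8 libraries and -1.79 (SE 0.15, adjusted p = 2.15e-30) without that pair. HNRNPDL (chr4:82422564-82430462), a paralog of the AU-rich element binder HNRNPD, was at 362, 418, 283 and 276 CPM in DMSO and at 96.8, 107, 98.4 and 94 CPM in SY-351. The means were 335 ± 67.5 CPM (SD, n = 4) and 99 ± 5.49 CPM (SD, n = 4), with no overlap. Its fold was -2.07 (SE 0.47, adjusted p = 0.0223) and -1.07 (SE 0.15, adjusted p = 2.87e-11) without DMSO 1 and 2.

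HNRNPA0 and HNRNPAB were the other hnRNPs that fell without DMSO 1 and 2, with log2 folds of -0.49 and -0.59 and no overlap in plain CPM, and with 8 libraries their folds were -2.25 and -1.86 (adjusted p = 0.0526 and 0.0532). HNRNPAB overlaps PHYKPL on the other strand over 40.6% of its length, so its reads are uncertain in the same way. HNRNPD was at 631, 740, 543 and 541 CPM in DMSO and at 360, 348, 355 and 341 CPM in SY-351, below in each library. Its TMM fold without DMSO 1 and 2 did not pass (-0.20, SE 0.16, adjusted p = 0.320), on the plain total it was -0.63, and with 8 libraries -1.09 (adjusted p = 0.138). HNRNPU, a scaffold-attachment factor, was at 1827, 2251, 1080 and 1046 CPM in DMSO and at 759, 782, 769 and 707 CPM in SY-351. Again no library overlapped, and the TMM fold did not pass (-0.07, adjusted p = 0.785, and -1.42, adjusted p = 0.140, with 8 libraries).

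Without DMSO 1 and 2, 6 hnRNPs rose: HNRNPA1, HNRNPA2B1, HNRNPA3, HNRNPC, HNRNPH3 and HNRNPK. HNRNPA1 (chr12:54280726-54287087), a repressor of exons, stood at 9.45, 5.21, 1353 and 1417 CPM in DMSO and at 1884, 1781, 1818 and 1834 CPM in SY-351. HNRNPA2B1 was at 100, 68.2, 895 and 899 CPM in DMSO and at 1212, 1063, 1158 and 1218 CPM in SY-351. Both were higher in every SY-351 library than in every DMSO library, by log2 folds of 0.82 (SE 0.17, adjusted p = 8.51e-06) and 0.80 (SE 0.17, adjusted p = 1.42e-05). HNRNPC, at 659, 637, 633 and 637 CPM in SY-351, had a fold of 0.80 (SE 0.17, adjusted p = 7.88e-06), and HNRNPA3 one of 0.70 (SE 0.17, adjusted p = 0.000108). With all 8 libraries none of these 4 passed, with folds of 1.78, 1.52, 1.77 and 0.25 (adjusted p = 0.393, 0.149, 0.417 and 0.642). HNRNPH3 (0.51) and HNRNPK (0.40) were not called on the plain total or with 8 libraries (1.41 and 1.08).

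The remaining hnRNPs tested, HNRNPLL, HNRNPM, HNRNPUL1, PTBP1 and PTBP3, had log2 folds of -0.18 to 0.36 without DMSO 1 and 2 and of -1.94 to 0.11 with 8 libraries, and passed in neither fit. PTBP1 was at 571, 591, 575 and 521 CPM in SY-351, below every DMSO library. HNRNPH2 is listed at 0 in all 8 libraries, where its row lies within the readthrough gene RPL36A-HNRNPH2 on the same strand, so it was not tested.

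Of the kinases, CLK1 rose and CLK3 fell without DMSO 1 and 2, and neither passed with 8 libraries (1.41 and -0.56). CLK1, a nuclear kinase that releases SR proteins from speckles, stood at 2.23, 1.66, 48.5 and 46.4 CPM in DMSO and at 50, 54.2, 56.4 and 47 CPM in SY-351. The SY-351 range reached down into that of DMSO 3 and 4, and the fold of 0.56 (SE 0.16, adjusted p = 0.00196) shrank to 0.13, not called, on the plain total. CLK3 was at 35.7, 29.4, 64.7 and 60 CPM in DMSO and at 31, 34.8, 33.2 and 34.6 CPM in SY-351, with a fold of -0.47 (SE 0.16, adjusted p = 0.00698). Its SY-351 values were at the level of DMSO 1 and 2.

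CLK4 was at 0.298, 0.569, 21.6 and 21.6 CPM in DMSO and at 14.9, 16.7, 14.7 and 13.6 CPM in SY-351 (log2 fold -0.10, adjusted p = 0.665). PRPF4B, a kinase of the tri-snRNP, was at 7.90, 4.41, 139 and 142 CPM in DMSO and at 119, 132, 137 and 111 CPM in SY-351 (0.25, adjusted p = 0.212). SRPK1, the cytoplasmic SR protein kinase, was at 7.86, 7.65, 242 and 237 CPM in DMSO and at 193, 211, 203 and 181 CPM in SY-351 (0.14, adjusted p = 0.510). These 3 folds and that of SRPK2 (0.10) are without DMSO 1 and 2, and with 8 libraries the 4 were 0.81, 1.10, 1.03 and -0.03. None of the 4 passed in either fit, and in all 4 the SY-351 values lay between the DMSO pairs.

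SON, the core scaffold of nuclear speckles (chr21:33543038-33577481), fell in both fits. It stood at 381, 422, 555 and 558 CPM in DMSO and at 179, 212, 222 and 173 CPM in SY-351, with no overlap. The log2 fold was -1.43 (SE 0.32, adjusted p = 0.0213) with 8 libraries and -1.08 (SE 0.15, adjusted p = 2.15e-11) without DMSO 1 and 2. SRRM1, a coactivator that bridges SR proteins and snRNPs, was at 2.52, 2.55, 224 and 230 CPM in DMSO and at 87.9, 95.1, 93.7 and 88.5 CPM in SY-351, between the pairs, and its fold without DMSO 1 and 2 was -0.89 (SE 0.16, adjusted p = 5.13e-08). With 8 libraries it was 0.05 (adjusted p = 0.978). SRRM2, the other speckle scaffold, was at 1329, 1014, 1588 and 1533 CPM in DMSO and at 1514, 1754, 1818 and 1471 CPM in SY-351. Its groups overlapped, and its fold of 0.50 (SE 0.17, adjusted p = 0.00898) without DMSO 1 and 2 was not called on the plain total (0.07) or with 8 libraries (0.11).

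In plain CPM, the groups stood fully apart with SY-351 lower in 16 of the 40 members (21.4% of all genes) and higher in 6 (11.2%). Against DMSO 3 and 4 alone SY-351 was lower in 28 (48.1%) and higher in 6 (16.5%). The 6 were SRSF11, TRA2A, HNRNPA1, HNRNPA2B1, HNRNPA3 and HNRNPC. In the comparison with all of DMSO, 0 of the 6 kinases tested were in either set.

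The splicing values come from the authors' deposited table, which gives for each junction or retained intron of a variation the expected inclusion in Control and in SY-351, and the posterior probability that they differ by at least 0.20. A folder name inside it says that outliers were left out, and which libraries stand behind it is not given in the sources used here. It holds no value per library, so no error can be set beside an inclusion. The table was already limited to larger differences, since every variation in it had an entry of at least 0.117, and its background shares are high. A change is counted here at a probability above 0.95, in 21 of the 26 members listed (64.2% of the genes in the table) and in 30 of their 50 variations (55.7% of all variations). By class these were 8 of 10 SR proteins, 6 of 7 hnRNPs, 4 of 6 kinases and 3 of 3 scaffolds. CLK3, HNRNPC, SRPK2, SRSF8 and SRSF11 had a variation that stayed below, with highest probabilities of 0.714 to 0.893.

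Each changed junction was matched by the length of its intron to GENCODE and counted once. Of the junctions that coding transcripts use, 1 was higher in SY-351 and 13 were lower in these genes, against 20.0% higher of 2462 over all genes that the table lists. Junctions found only in nonproductive transcripts (labelled other than protein coding, such as nonsense-mediated decay, retained intron or processed transcript) were higher in 12 cases and lower in 4, against 68.9% higher of 834 in all genes. Junctions with no match, all of them in these genes marked in the table as new, were higher in 9 and lower in 2, against 85.9% higher of 1284. The junctions of a variation share 1 total, so a rise in some forces a fall in others and these counts are not independent.

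**Figure D3:**
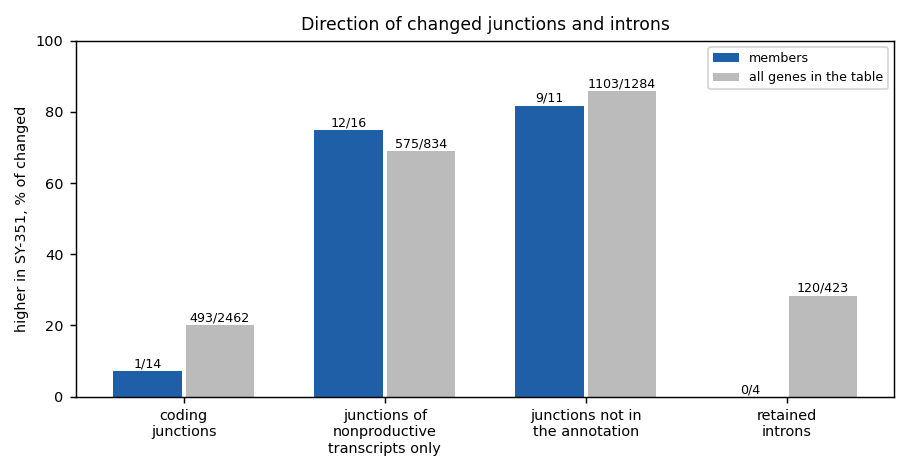
Share of changed junctions and retained introns (authors' probability above 0.95) that were higher in SY-351, for the members (blue) and for all genes in the table (grey), with the counts above the bars. The members point the same way as all genes in each kind, with 1 of 14 coding junctions and 0 of 4 retained introns higher.

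Retained introns fell in 4 members and rose in none, where 28.4% of the 423 changed introns in all genes rose. In HNRNPD, in the authors' deposited table, retention of a stretch of 692 bases went from 85.9% in Control to 3.7% in SY-351, while in the same variation a junction over 740 bases rose from 12.8% to 89.6%. HNRNPDL did the same: its 679-base intron was retained at 83.4% in Control and 16.6% in SY-351 and spliced at 16.2% and 82.6%. In both genes GENCODE lists the spliced junction only in nonsense-mediated decay transcripts, downstream of the stop codon. It leaves an exon listed only in such transcripts, of 107 bases in HNRNPD and 105 bases in HNRNPDL. The values above are shares of what leaves that exon, not of all RNA of the gene. The junction into the exon went from 3.4% to 26.2% in HNRNPD and from 27.6% to 58.5% in HNRNPDL. Neither passed (probabilities 0.863 and 0.927). The RNA of HNRNPDL fell in both fits and that of HNRNPD in neither.

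Another of the 4 was in SRSF3, whose poison exon is shown above. In the authors' deposited table the 875-base junction that leaves this exon rose from 47.0% to 98.8%, and a retained stretch of 126 bases in the same variation fell from 53.0% to 1.2%. These are shares of what leaves the poison exon, and do not say how often the exon itself is included. In SRSF7 the 244-base intron after the poison exon was retained at 74.8% in Control and 27.7% in SY-351, and a new junction over 586 bases rose from 14.3% to 52.9%. The annotated junction of that intron went from 11.2% to 18.9% and did not pass. Here too the values are shares of what leaves the poison exon. SRSF3 and SRSF7 RNA fell without DMSO 1 and 2.

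Likely poison exons, matched by their own length and both neighbouring introns, rose in 3 members and fell in 1 (the share of such exons over all genes was not counted). Among the 3 is the 41-base exon of CLK4, which lies downstream of the stop codon in its listed transcript. In SON, the junction from the 80-base exon onward rose from 3.6% to 75.4% in the authors' deposited table, and the one into it from 2.1% to 48.8%. The junction that skips it, which coding transcripts use, fell from 96.4% to 24.6% and from 97.8% to 46.7%. SON RNA fell in both fits. The 175-base exon of SRSF4 rose from 5.3% to 41.5% as its skipping junction fell from 94% to 54.4%. Into that exon, the 664-base junction fell from 99.2% to 64.5% and a new 15581-base junction rose from 0.8% to 35.5%. Read from the upstream side, the skipping junction went from 93.8% to 67.4% and the 15581-base junction from 0.0% to 14.8%. Neither passed there (probabilities 0.942 and 0.003).

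SRSF1 accounts for the exon that fell, and its case is mixed. The 200-base junction into it fell from 98.6% to 37.0% in the authors' deposited table, and a new 759-base junction that leaves the exon out rose from 0.8% to 52.8%. That 200-base intron also precedes the 187-base exon of coding transcripts, which differs from the 203-base poison form in its other end alone. Seen from the other side, the 372-base junction of the coding form fell from 48.4% to 6.3%, and the 759-base junction rose from 38.6% to 79.0%. The 356-base junction of the poison form went from 9.2% to 0.3% and did not pass, so the change counted for this exon rests on the intron that both forms share.

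Both CLK genes moved towards skipping of exon 4. In the authors' deposited table the CLK1 junction that skips the exon, 1491 bases, rose from 42.7% to 80.2% read from the exon before it and from 38.0% to 81.0% read from the exon after it. The junctions that include it fell from 57.3% to 19.7% and from 61.9% to 18.9%. In CLK4 the matching skip, 1607 bases, rose from 34.7% to 63.9% read from the exon before it (probability 0.954), and from 42.1% to 69.7% read from the exon after it, which did not pass (0.904). CLK4 also gained its 41-base exon, whose 442-base junction rose from 2.9% to 36.2% and whose 2510-base junction rose from 1.2% to 28.9%. The 2993-base coding junction fell from 95.9% to 55.6%. CLK1 RNA rose without DMSO 1 and 2 and CLK4 RNA was not called.

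**Figure D4:**
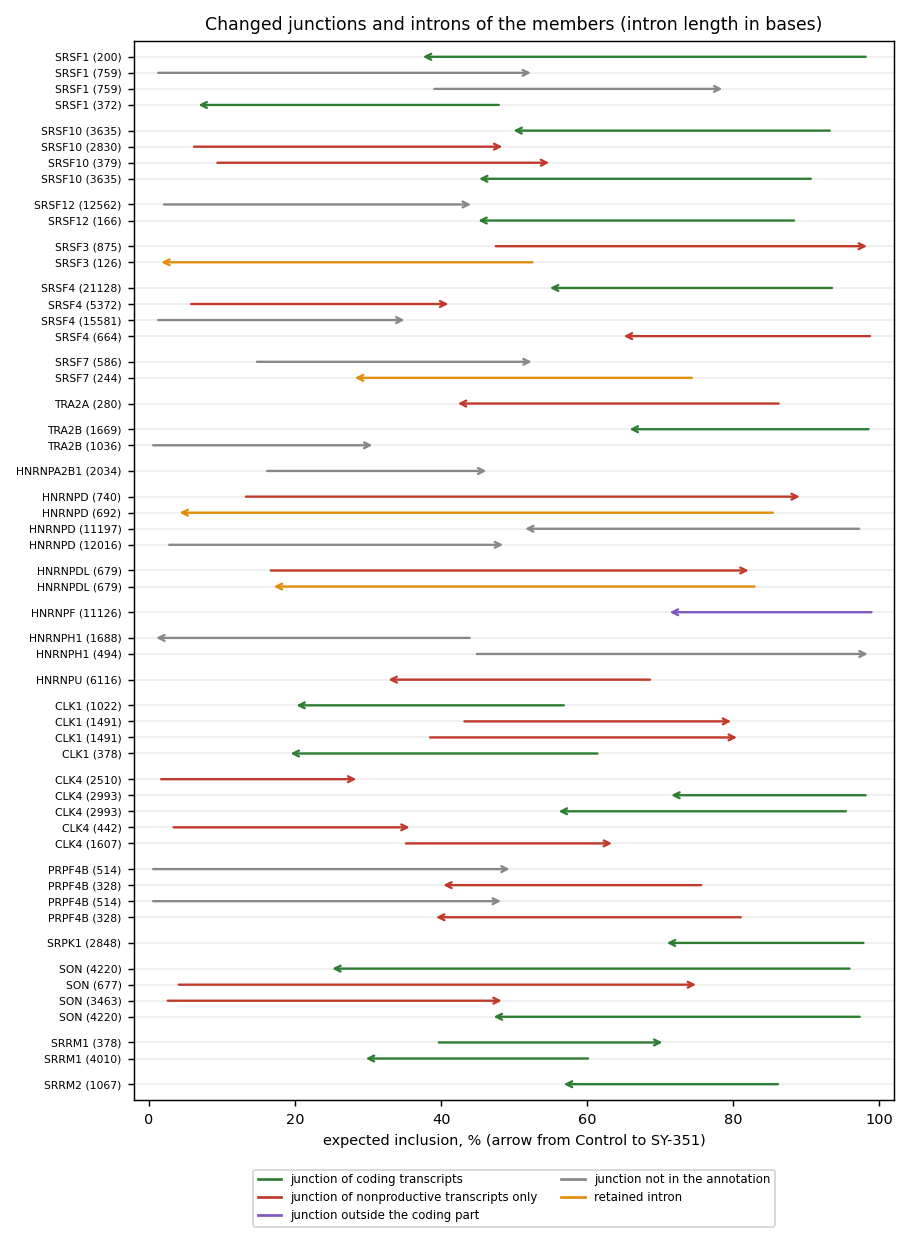
Expected inclusion in the authors' deposited table of each changed junction or retained intron of the members, as an arrow from Control to SY-351 in percent, labelled by gene and intron length in bases and coloured by kind. Green arrows, coding junctions, point left but for SRRM1 (378), from 39.2% to 70.8%, and orange arrows, retained introns, all point left.

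SRSF10 exchanged its 3635-base coding junction, which fell from 91.1% to 44.7% in the authors' deposited table, for a 379-base one of nonproductive transcripts, which rose from 8.9% to 55.3%. Seen from the downstream side, the 2830-base junction rose from 5.7% to 48.9%. TRA2B lost part of a coding junction of 1669 bases (99% to 65.3%) to a new one of 1036 bases (0.1% to 31.1%). In TRA2A a 280-base junction known only from a processed transcript fell from 86.7% to 41.8%. SRSF12 lost a 166-base coding junction (88.8% to 44.6%) as a new 12562-base junction rose from 1.6% to 44.6%, in a gene at 1.51 to 2.52 CPM.

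Of the other members, the scaffold SRRM1 was the one with a coding junction that rose. The junction into its 42-base exon went from 39.2% to 70.8% and the skip from 60.6% to 29.2% in the authors' deposited table, and its RNA fell without DMSO 1 and 2. Read from the downstream side, the 3590-base junction went from 52.2% to 78.4% and the skip from 47.7% to 21.6%. Neither passed there (probabilities 0.945 and 0.939). SRRM2 lost part of a 1067-base coding junction (86.6% to 56.3%) and SRPK1 part of a 2848-base one (98.3% to 70.4%). PRPF4B gained a new 514-base junction (0.1% to 49.9%) against a 328-base one of a processed transcript (76.1% to 39.8%).

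Among hnRNPs, a new 494-base junction of HNRNPH1 rose from 44.4% to 98.9% and a 1688-base one fell from 44.4% to 0.5% in the authors' deposited table. HNRNPA2B1 gained a new 2034-base junction (15.7% to 46.7%), whose length equals the skip of a 136-base exon of a nonsense-mediated decay transcript. HNRNPU lost a 6116-base junction known only from nonsense-mediated decay transcripts (69.1% to 32.3%), and HNRNPF an 11126-base junction outside its coding part (99.4% to 70.8%). HNRNPD exchanged 2 new junctions of 11197 and 12016 bases (97.7% to 51.0% and 2.3% to 49.0%).

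Expression and splicing changes are set side by side here. Of the 20 members with a changed variation and a test, 9 fell and 4 rose without DMSO 1 and 2 (median log2 fold -0.15), close to the shares among the 1877 genes with a changed variation, of which 46.1% fell and 18.8% rose (median -0.29). Of the 5 with a variation below the threshold 1 fell and 2 rose (median 0.10), against 39.4% and 22.7% of 1041 genes (median -0.15). Of the 15 with no variation 4 fell and 4 rose (median -0.02), against 22.5% and 22.3% of 12894 genes (median 0.06). The differences between these groups were not tested. Reads of an interval were counted with its introns, so a change of retention can also enter the count.

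**Figure D5:**
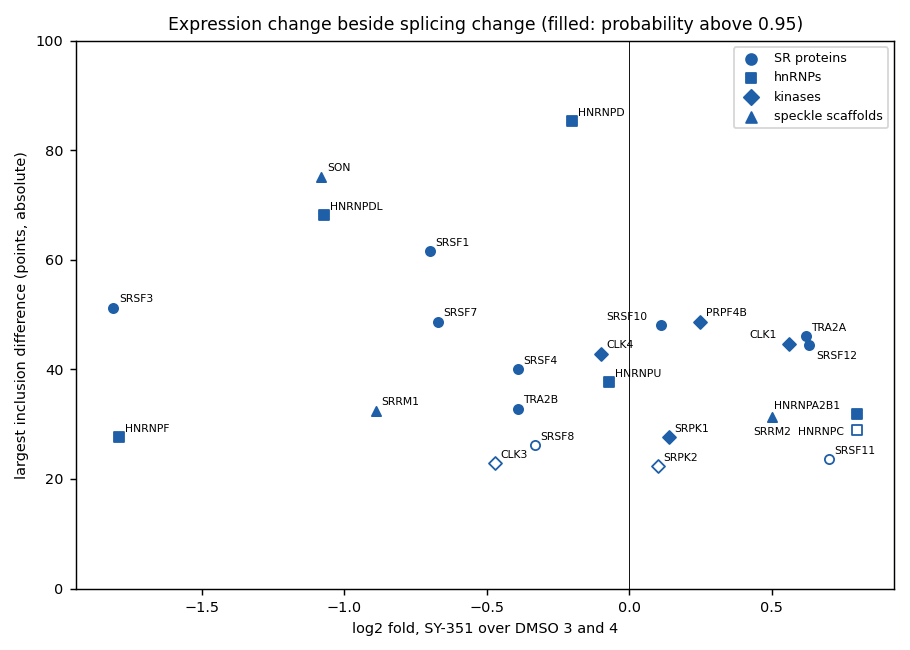
Log2 fold of SY-351 over DMSO 3 and 4 (horizontal) against the largest absolute inclusion difference in points (vertical) for the 25 members with both, symbols by class, filled where the authors' probability was above 0.95. SON, HNRNPDL, SRSF1 and SRSF3 combine a fall with a difference above 50 points. HNRNPD, where retention after an exon of nonsense-mediated decay transcripts fell by 85.3 points, has a fold of -0.20.

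The further genes of this machinery were followed as lists. Of 20 tested coactivators with arginine- and serine-rich domains 4 fell with all 8 libraries and 0 rose (13.6% and 2.91% of all genes), and without DMSO 1 and 2, 7 fell and 3 rose (26.4% and 21.9%). With 8 libraries SCAF1, which binds the polymerase tail, fell by 4.34 on the log2 scale (SE 0.93, adjusted p = 0.0187), SCAF8 by 1.35 (SE 0.26) and LUC7L by 1.56 (SE 0.40). Without DMSO 1 and 2 SCAF1 fell by 1.77 (SE 0.15, adjusted p = 7.30e-29), THRAP3 by 1.28 (SE 0.15) and SCAF8 by 1.06 (SE 0.16), while CLASRP (0.86), PNN (0.86) and LUC7L3 (0.47) rose. THRAP3, CLASRP, PNN and LUC7L3 did not pass with 8 libraries (-0.35, -0.89, 1.80 and 0.90), where CLASRP had the other sign. In splicing, 7 of the 10 with a variation changed (64.2% of the genes in the table). SCAF4 lost a coding junction (99.7% to 23.4%), LUC7L2 a retained intron (84.9% to 15.3%), and RBM39 gained a junction of nonproductive transcripts (19.8% to 81.6%) in the authors' deposited table.

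Among 18 further hnRNP-like proteins 1 fell and 0 rose with 8 libraries (13.6% and 2.91% of all genes), and 2 fell and 7 rose without DMSO 1 and 2 (26.4% and 21.9%). With 8 libraries PCBP1 fell by 3.00 on the log2 scale (SE 0.75). In the other fit TARDBP fell by 1.23 (SE 0.16) and PCBP1 by 1.08 (SE 0.15), and PTBP2, the neuronal paralog of PTBP1, rose by 1.54 (SE 0.17), RALY by 0.98 (SE 0.17) and PCBP2 by 0.88 (SE 0.17). TARDBP, PTBP2, RALY and PCBP2 did not pass with 8 libraries (-0.35, 2.44, -0.90 and 1.45), where RALY had the other sign. All 6 with a variation changed (64.2% of the genes in the table), led in the authors' deposited table by a coding junction of DDX17 (98.2% to 15.5%), a new junction of PTBP2 (0.3% to 78.7%) and a junction of nonproductive SFPQ transcripts (73.7% to 4.4%). Among 16 other sequence-specific regulators 1 fell and 1 rose with 8 libraries (RBM10, -2.20, and MSI2, 0.93), against 13.6% and 2.91% of all genes, and 3 fell and 8 rose without DMSO 1 and 2 (26.4% and 21.9%). In the latter fit RBM5 fell by 1.67, MBNL2 by 1.3 and RBM10 by 0.98, and RBM4 rose by 1.41, RBM15 by 0.82 and CELF1 by 0.79. With 8 libraries RBM5 (-0.71), MBNL2 (-1.03), RBM4 (2.37), RBM15 (0.63) and CELF1 (1.37) did not pass. Of 8 with a variation 6 changed (64.2% of the genes in the table), RBM15 most (a coding junction, 75.6% to 4.6%), then RBM5 (98% to 46.4%) and CELF1 (21.6% to 61.6%).

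Of 7 further kinases and partners of SR proteins, 4 fell and 0 rose with 8 libraries (13.6% and 2.91% of all genes), and 4 fell and 0 rose without DMSO 1 and 2 (26.4% and 21.9%). PPP1R8, a nuclear inhibitor of protein phosphatase 1, had log2 folds of -2.19 (SE 0.58, adjusted p = 0.0378) with 8 libraries and -2.81 (SE 0.15, adjusted p = 2.59e-71) without DMSO 1 and 2. DYRK3, which dissolves speckles, fell by 2.26 (SE 0.34) and by 1.81 (SE 0.21), and DYRK1A by 1.21 (SE 0.25) and by 0.95 (SE 0.16). The 1 with a variation did not change.

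The factors of nonsense-mediated decay and of the exon junction complex, which act on the nonproductive forms described above, were followed too. Of 14, 4 fell and 0 rose with 8 libraries (13.6% and 2.91% of all genes), and 5 fell and 1 rose without DMSO 1 and 2 (26.4% and 21.9%). EIF4A3, the helicase at the core of the exon junction complex, was at 104, 117, 130 and 137 CPM in DMSO and at 23.6, 21.4, 20.7 and 21.6 CPM in SY-351. SMG9 was at 103, 87.4, 102 and 100 CPM and at 14.8, 15.3, 15.1 and 13.7 CPM, and SMG8 at 12.4, 9.77, 35.4 and 36.6 CPM and at 5.08, 6.86, 6.56 and 6.49 CPM. In these 3, no SY-351 library reached any DMSO library, and the log2 folds were -2.66, -2.94 and -1.85 with 8 libraries and -2.19, -2.35 and -2.11 without DMSO 1 and 2. UPF1, the central helicase, was at 738, 737, 319 and 323 CPM in DMSO and at 148, 154, 151 and 136 CPM in SY-351, and UPF3A rose by 0.56 (SE 0.16) without DMSO 1 and 2 and did not pass with 8 libraries (0.40). The part of these levels in the shares of nonproductive junctions was not tested. In the authors' deposited table, a coding junction of SMG8 fell from 96.1% to 56.2% and a new junction of SMG6 rose from 0.2% to 42%.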

How the data were processed

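RNA-seq counts per RefSeq interval were used as the authors deposited them: whole-number read counts made with featureCounts 1.6.2 with strand setting 1, each interval from gene start to end with introns, per the file headers. The submitters' processing notes give GRCh38 as build and list DESeq2 among the tools. The other deposited table, a comparison by the authors with expected inclusion and posterior probability per junction (the column names are those of MAJIQ and Voila, per the file headers), is on another build whose name is not given in the sources used here, so junctions were matched to GENCODE release 29 by intron length (98.2% of junctions not marked as new) and no coordinate of it is printed. Its difference is Control minus SY-351 and was turned round after a check of the sign (100% of 17265 entries of at least 0.05). How technical repeats were joined is not given in the sources used here. Count columns not used numbered 0.

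Of 18093 rows 17871 were matched to a symbol by RefSeq identifier, and 12 that shared a symbol were set aside. Counts were fitted with edgeR 4.0.16 in R 4.3.3 (TMM, filterByExpr, robust quasi-likelihood, two-sided, Benjamini-Hochberg adjusted p below 0.05), group as the only term. SE is the log2 fold over the square root of F. Alternatives were DESeq2 1.42.0, other scalings and filters, other controls, a replicate block, leaving out each library, and other probabilities. The pipeline was tested on simulated data, whose means did not hold the split of the DMSO group. Recovery of the made folds was required only for the fit without DMSO 1 and 2. Tables used Python 3.11.15 and pandas 2.3.3. Sequences are GENCODE transcripts cut at annotated exons. Named with values per library are members past the 8-library test or the splicing probability, the 2 largest folds in each direction and the highest level of each class, and of the further lists the 3 smallest adjusted p and largest inclusion differences. HNRNPC in DMSO, PTBP1, UPF1 and the nonsense-mediated decay levels were added after their values were seen. Members and lists were chosen with earlier results of these data known. At these depths the precision of a member's level is set by the spread between libraries, and the 3-count levels cover counting error only. The splicing of 1 gene of the further lists is not reported here.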

Additional observations from a re-analysis of the deposited data

Results flagged for a closer look

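In 5 of the 80 groups of 4 libraries looked at (40 members in both conditions), the highest or the lowest library stood apart from the other 3 by more than a 95% critical value for outliers, where chance gives about 1 in 20. SRSF2 was at 178 CPM in SY-351 replicate 4, against 203 to 208 CPM in the other 3. SRSF5 was at 47 CPM in the same library, against 54.1 to 55.3 CPM. SY-351 replicate 1 held 659 CPM of HNRNPC against 633 to 637 CPM, and 745 CPM of HNRNPUL1 against 697 to 701 CPM. SRSF8 was at 67.7 CPM in DMSO replicate 2, against 55.2 to 56 CPM. The split of DMSO 1 and 2 from DMSO 3 and 4 leaves no single library apart and is not found this way.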

How the results depend on the processing

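The 3 members lower and 0 higher with all 8 libraries, and the 2100 and 450 of all genes, moved as follows, and the cause was not tested. Without DMSO 1 and 2, 14 and 10 members and 4172 and 3465 genes were called, and against DMSO 1 and 2 alone 21 and 16 members and 5997 and 6377 genes. DESeq2 called 14 and 1 members and 3473 and 1057 genes. Total count scaling called 10 members lower and 215 genes higher. With the replicate block in edgeR, 0 members were called lower and 0 genes in either direction (6 members lower and 2 higher at an unadjusted p below 0.05). The deviations of same-numbered samples had correlations of 0, -0.03, 0.01 and -0.13. In DMSO these deviations include the split of DMSO 1 and 2 from the rest of the group, which can hide a smaller shared effect. The correlations therefore cannot decide whether the numbers pair the samples. DESeq2's size factors in edgeR and the lack of a filter left the members at 3 and 0. Leaving out 1 of the 8 libraries gave 0 to 16 members lower and 0 higher, 473 to 3438 genes lower and 61 to 1885 higher. Leaving out 1 library besides DMSO 1 and 2 gave 12 to 22 members lower and 8 to 19 higher, 3772 to 5400 genes lower and 2868 to 4832 higher. Of the alternatives chosen after the data were seen, genes of at least 10 CPM with 8 libraries gave 7 and 1 members. Without DMSO 1 and 2 they gave 18 and 16 members and 3687 and 3459 genes, total count scaling 27 and 5 members and 6846 and 2065 genes, and DESeq2 12 and 9 members and 4008 and 3320 genes.

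A sign opposite to that of the 8-library fit, with a call, arose for SRRM1, SRSF5 and SRSF7 without DMSO 1 and 2 (log2 folds -0.89, -0.91 and -0.67), also with total count scaling there (-1.31, -1.34 and -1.07), DESeq2 (-0.91, -0.93 and -0.69) and genes of at least 10 CPM (-0.84, -0.87 and -0.61). Total count scaling turned CLK4 (-0.52), PTBP3 (-0.60) and SRPK1 (-0.28) too, and genes of at least 10 CPM turned HNRNPM (0.29), HNRNPUL1 (0.41), PTBP3 (-0.13), SRSF10 (0.16) and SRSF9 (0.26). Against DMSO 1 and 2 alone SRRM2 was lower (-0.32) and SRSF3 higher (4.79). Leaving out DMSO 1 and 2 and 1 more library turned SRRM1 (-1.11 to -0.62), SRSF5 (-1.12 to -0.66) and SRSF7 (-0.96 to -0.29) for any library, CLK4 (-0.30) and PTBP3 (-0.43) for DMSO 3, and HNRNPM (0.49), HNRNPUL1 (0.62), PTBP1 (0.25), SRPK2 (0.32), SRSF10 (0.42) and SRSF9 (0.45) for DMSO 4. Where DMSO 3 or 4 was left out too, 1 DMSO library stood alone and was assumed to vary like the SY-351 libraries. Without DMSO 3 alone, HNRNPM and PTBP1 kept their sign and passed (-1.63 and -2.24).

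In the splicing counts, the 4 retained introns lower and 0 higher and the 21 members changed held within 1.5 times at probabilities of 0.90 and 0.99. At a difference of 0.10 the retained introns were 5 and 0, and all 26 members listed count as changed, as do all 3700 genes, since the table was already limited to larger differences. The 30 changed variations became 50 at a difference of 0.10. The 3 poison exons that rose became 7 at a probability of 0.90, 7 when matched by 1 intron and 12 at a difference of 0.10, and the 1 that fell became 7 with 1 intron, 5 by length alone and 2 at a difference of 0.10. Coding junctions, 1 higher and 13 lower, became 2 higher at 0.90, and 5 and 24 at a difference of 0.10. The 12 junctions of nonproductive transcripts that rose became 23 at that difference.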
